A study of Mus musculus with 12 samples.

Results

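The BMP ligands Bmp2, Bmp3, Bmp4 and Bmp6, the BMP antagonist Grem1 and the target genes Id1, Id2 and Id3 were followed in the ascending aorta of mice with a smooth muscle disruption of Tgfbr2, a TGF-beta receptor, on an Fbn1 wild-type or mutant background. A gene was taken when the array annotation gave its symbol alone to a probe set, and each of these 8 symbols had 1 such probe set. They are 8 of 19938 genes measured in this way, and all 8 were among the 14944 genes tested, whose mean lay above a filter on dim genes set at a log2 intensity of 7.31.

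The data were 12 Affymetrix arrays, 3 in each of 4 groups, which all carried the Myh11-CreERT2 transgene and floxed Tgfbr2 (Tgfbr2f/f) and were taken at 6 weeks of age. Mutant knockouts carried 1 copy of Fbn1 C1039G, a fibrillin-1 allele that models Marfan syndrome, and received tamoxifen, 1 mg by intraperitoneal injection on each of 5 days from 4 weeks of age. Mutant controls had the same alleles and received corn oil. Wild-type knockouts and wild-type controls were Fbn1 wild-type and received tamoxifen or corn oil in the same way. The Cre recombinase is driven by the smooth muscle gene Myh11, so other cells of the aorta were not its target, and tamoxifen and knockout cannot be told apart because no group received tamoxifen without Cre. Whether arrays of 1 group stem from separate animals is not stated in the labels, so p-values measure the spread between arrays, which may be technical.

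Bone morphogenetic proteins (BMPs) are secreted ligands of the TGF-beta superfamily. They bind pairs of type I and type II receptors, which phosphorylate SMAD1, SMAD5 and SMAD9 (a separate branch from the SMAD2 and SMAD3 used by TGF-beta), and secreted antagonists such as gremlin-1 hold the ligands away from the receptors. Id1, Id2 and Id3 are classical targets of this branch and encode ID proteins, helix-loop-helix proteins without a DNA-binding region that bind E proteins and keep them off DNA. In vessels BMP ligands come from endothelium and smooth muscle, and the pathway is known for its part in vascular calcification and in smooth muscle differentiation.

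The promoters of Bmp4 and Bmp6, the ligand genes called with knockout in the mutant, are shown beside those of Id2 and Id3, as known targets of the pathway. RefSeq promoter sequences (GRCm38.p6, 250 bases before to 50 bases after the annotated start) were at hand for 5 of the 8 members, and 4 of them are printed on the strand of the gene. Capitals mark 2 motifs, GGCGCC, which BMP-activated SMADs are known to bind and which reads the same on both strands, and the SMAD box GTCT, written AGAC where it lies on the other strand. The motifs cannot overlap. Id3 (chr4:136143572-136143871, plus strand), Id2 (chr12:25096043-25096342, minus strand), Bmp4 (chr14:46390620-46390919, minus strand) and Bmp6 (chr13:38345466-38345765, plus strand) read as follows.
Id3: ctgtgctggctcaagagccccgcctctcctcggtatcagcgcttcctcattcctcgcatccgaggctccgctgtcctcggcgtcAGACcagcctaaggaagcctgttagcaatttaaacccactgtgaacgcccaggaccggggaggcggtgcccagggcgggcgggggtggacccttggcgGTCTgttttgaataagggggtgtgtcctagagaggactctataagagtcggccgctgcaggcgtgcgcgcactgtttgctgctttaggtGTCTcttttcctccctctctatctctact
Id2: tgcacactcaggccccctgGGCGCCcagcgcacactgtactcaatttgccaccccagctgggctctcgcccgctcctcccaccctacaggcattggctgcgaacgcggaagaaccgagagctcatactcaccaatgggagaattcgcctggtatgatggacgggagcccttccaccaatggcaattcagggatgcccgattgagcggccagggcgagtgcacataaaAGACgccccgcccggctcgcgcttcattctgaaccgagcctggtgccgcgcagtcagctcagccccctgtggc
Bmp4: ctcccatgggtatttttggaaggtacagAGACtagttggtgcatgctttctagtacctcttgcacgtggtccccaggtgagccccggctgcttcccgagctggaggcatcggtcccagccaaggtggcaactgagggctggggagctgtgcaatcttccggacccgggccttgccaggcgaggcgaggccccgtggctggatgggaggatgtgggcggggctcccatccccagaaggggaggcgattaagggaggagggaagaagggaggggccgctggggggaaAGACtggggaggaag
Bmp6: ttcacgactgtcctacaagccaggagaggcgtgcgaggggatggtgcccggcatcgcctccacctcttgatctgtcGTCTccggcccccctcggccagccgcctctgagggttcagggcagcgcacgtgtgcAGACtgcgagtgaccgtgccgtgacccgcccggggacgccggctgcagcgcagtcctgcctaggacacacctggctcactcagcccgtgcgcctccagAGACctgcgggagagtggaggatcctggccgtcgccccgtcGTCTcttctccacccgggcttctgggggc
The Id2 window held 1 GGCGCC and 1 GTCT, and the Id3 window held 0 GGCGCC and 3 GTCT. The Bmp4 window held 0 and 2, and the Bmp6 window 0 and 4. The window of Grem1, which is not printed, held 1 and 6, and Grem1 was not called in any contrast. GGCGCC occurred in 11.9% of 32851 promoters of the same length and GTCT in 88%, with a median of 2 GTCT per promoter. These matches describe letters and not bound sites.

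The targeted gene was measured first. Tgfbr2 had log2 intensities of 12.05, 12.07 and 11.98 in mutant knockouts, against 12.04, 11.98 and 11.95 in mutant controls. It had 11.88, 11.95 and 11.79 in wild-type knockouts, against 11.96, 11.96 and 11.94 in wild-type controls. The ranges overlapped in both genotypes, and the log2 difference was 0.04 ± 0.05 in the mutant (SE, n = 3 each, limma, adjusted p = 0.594) and -0.08 ± 0.05 in the wild-type (adjusted p = 0.324). Where the probes lie relative to the deleted part was not analysed here, so this level does not check the labels, and the groups are named as labelled.

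All 14 smooth muscle markers were above the filter on dim genes, and their mean log2 level, each gene centred on its mean over the 12 arrays, stayed between -0.07 and 0.05 on every array. That mean covers single markers that moved in opposite directions. With knockout 3 rose and 2 fell in the mutant, and 1 rose and 3 fell in the wild-type. In whole tissue, fewer cells of a type and less RNA per cell cannot be told apart. Of 17 macrophage markers tested, 17 rose with knockout in the wild-type and 8 in the mutant, and of 22 cell division genes 21 and 5 rose. Over all tested genes 18.8% and 13.4% were called, counting both directions. Mutant control 3 and mutant knockout 1 stood apart in Ucp1, a brown fat gene, at log2 8.58 and 8.21, and mutant knockout 2 had 7.30, where the other 9 arrays lay between 6.75 and 6.93. The members were therefore also tested without the first pair.

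Bmp3 was the member that fell. It is an unusual family member that is known to oppose other BMPs in bone. Bmp3 had log2 intensities of 10.10, 10.35 and 10.29 in wild-type knockouts, against 11.40, 11.28 and 11.41 in wild-type controls. In the mutant it had 9.69, 9.56 and 9.89 in knockouts, against 9.99, 9.87 and 10.50 in controls. The wild-type controls were above all 9 other arrays, and mutant knockouts and mutant controls overlapped by a narrow margin.

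Bmp3 fell by 1.12 ± 0.14 on the log2 scale with knockout in the wild-type (SE, n = 3 each, 0.462-fold, adjusted p = 1.87e-04). It was the only member called there, where 18.8% of all tested genes were called, so the count of 1 of 8 is not a result about the members. In the mutant its log2 difference was -0.41 ± 0.14 and missed the threshold (adjusted p = 0.0679). It passed under 4 of 23 alternatives, namely median centring (adjusted p = 0.0430), array weights (0.0465), the replicate number as a block (0.0400) and without mutant control 2 (0.0451). Without mutant control 3 it was -0.21 (adjusted p = 0.168), and without both arrays of high Ucp1 -0.20. The difference between both knockout effects was 0.71 ± 0.20 (95% interval 0.29 to 1.13), and it did not pass (adjusted p = 0.101). It did pass without mutant control 3 (0.90, adjusted p = 0.0100) and without both arrays of high Ucp1 (0.91, adjusted p = 0.0195). In the fit to all 12 arrays no member passed this test of the difference, which called 1.48% of all tested genes.

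Bmp3 was also lower with the Fbn1 mutation. Among controls it fell by 1.24 ± 0.14 on the log2 scale in mutants against wild-type (0.423-fold, adjusted p = 4.50e-04), with no overlap, and it was the only member of 8 called where 6.49% of tested genes were. Among knockouts it fell by 0.53 ± 0.14 (0.692-fold, adjusted p = 0.0405), again as the only member, where 5.96% were called. This last call was lost without any 1 of 7 arrays, namely wild-type control 1 or 2, any wild-type knockout, or mutant knockout 1 or 2 (adjusted p between 0.0536 and 0.130). Mutant knockouts against wild-type controls differed by -1.65 ± 0.14 (0.319-fold, adjusted p = 1.06e-05). The order of the group means was mutant knockout, mutant control, wild-type knockout and wild-type control, and only the step to wild-type control was free of overlap. The contrast among controls and that of mutant knockouts with wild-type controls share the wild-type controls. The latter shares the mutant knockouts with the contrast among knockouts, so these are not separate results.

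The genes most like Bmp3 over the 12 arrays, by the smallest root mean square difference of centred log2 levels, were Klk10, a kallikrein-related peptidase (0.222), and Tmem229b, a transmembrane protein gene (0.226). Bmp3 itself ranged over 1.85 log2 units, against which these distances can be read. Tmem229b had a log2 difference of -0.72 ± 0.12 with knockout in the wild-type (adjusted p = 0.00109) and of -0.73 ± 0.12 in the mutant (adjusted p = 0.00240). Klk10 had -0.79 ± 0.16 (adjusted p = 0.00472) and -0.47 ± 0.16 (adjusted p = 0.0712). Both genes were picked for likeness to Bmp3 on these same arrays, so their changes are no separate support.

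**Figure D1:**
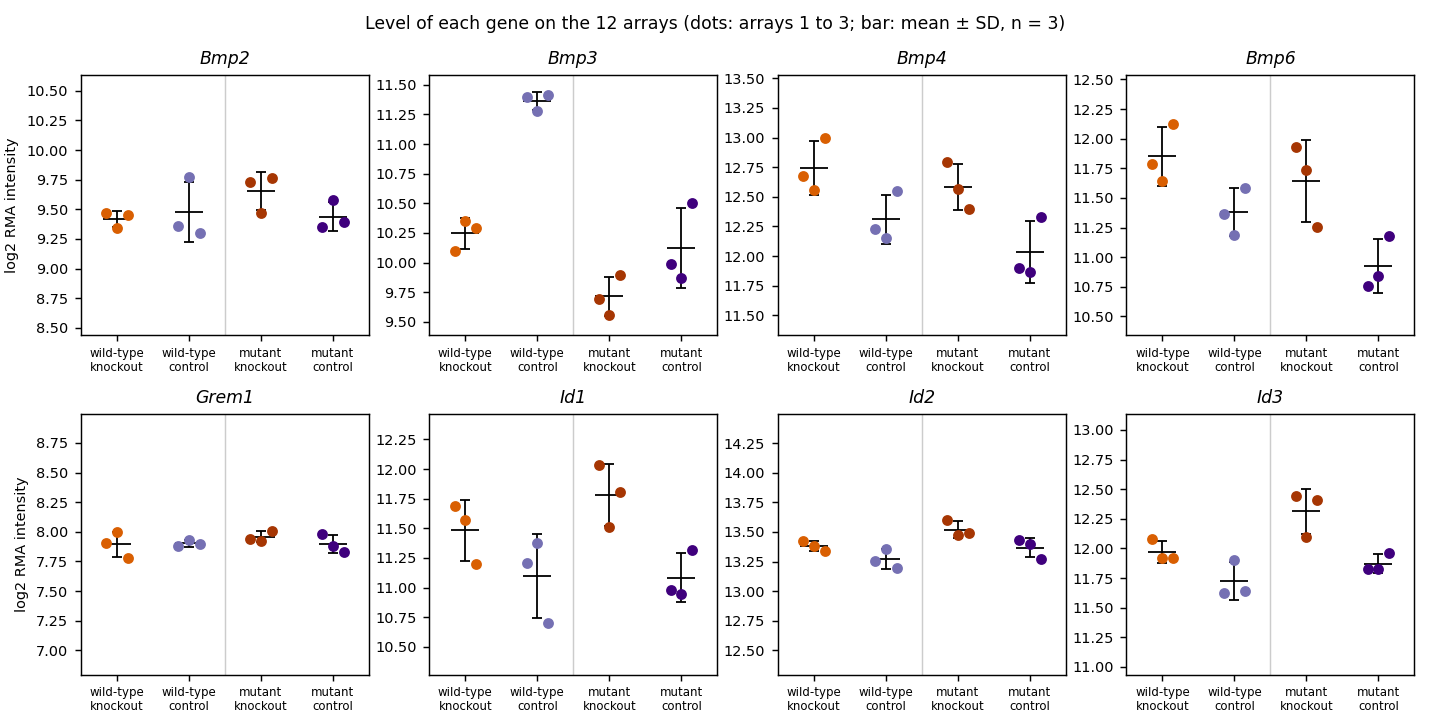
Log2 RMA intensity of the 8 genes on every array (y axis, each panel spanning the same number of log2 units) by group (x axis, knockout left of its control). Dots are arrays 1 to 3 and bars the mean ± SD (n = 3). Bmp3 stands highest in the 3 wild-type controls, at 11.28 to 11.41, Bmp4 and Bmp6 are higher in knockouts than in their controls, and Grem1 stays between 7.78 and 8.01.

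Bmp4 and Bmp6 were higher in knockouts than in controls of both genotypes and passed the test in the mutant. Bmp4 is a BMP ligand made by endothelium under disturbed flow and by several mesenchymal cells. It had log2 intensities of 12.79, 12.57 and 12.40 in mutant knockouts, against 11.90, 11.87 and 12.33 in mutant controls. It had 12.68, 12.56 and 13.00 in wild-type knockouts, against 12.23, 12.16 and 12.55 in wild-type controls. Neither genotype's groups overlapped, but in each the highest control lay close to the lowest knockout.

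Bmp4 rose by 0.55 ± 0.15 on the log2 scale in the mutant (SE, n = 3 each, 1.47-fold, adjusted p = 0.0316). In the wild-type the difference was 0.43 ± 0.15 (95% interval 0.10 to 0.76) and missed the threshold (adjusted p = 0.0650). The difference of both effects was 0.12 ± 0.21 (adjusted p = 0.812), with an interval of -0.34 to 0.58. No contrast of Fbn1 mutant with wild-type was called for Bmp4, at -0.16 ± 0.15 among knockouts (adjusted p = 0.615) and -0.28 ± 0.15 among controls (adjusted p = 0.282).

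Bmp6, known as an endothelial ligand that also sets hepcidin in the liver, was higher in the same comparisons. It had log2 intensities of 11.93, 11.74 and 11.26 in mutant knockouts, against 10.76, 10.84 and 11.18 in mutant controls. It had 11.79, 11.64 and 12.13 in wild-type knockouts, against 11.37, 11.19 and 11.59 in wild-type controls. Again neither genotype's groups overlapped, with mutant knockout 3 close to mutant control 3. Bmp6 rose by 0.72 ± 0.17 in the mutant (1.64-fold, adjusted p = 0.0201), and its difference in the wild-type was 0.47 ± 0.17 (adjusted p = 0.0809). The difference of the effects was 0.25 ± 0.25 (adjusted p = 0.638). Among controls Bmp6 was lower on all 3 mutant than on all 3 wild-type arrays, by -0.46 ± 0.17, without passing (adjusted p = 0.138), and among knockouts the difference was -0.21 ± 0.17 (adjusted p = 0.559).

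Both ligands took the same order of arrays in 3 of the 4 groups, and Bmp6 was the third nearest of the tested genes to Bmp4 (root mean square difference 0.114 log2 over 12 arrays). The 2 genes most like Bmp4 were Klhl6 (0.0893) and the endothelial gene Vwf (0.114), and those most like Bmp6 were Myct1 (0.112) and the sphingosine-1-phosphate receptor gene S1pr1 (0.139). As these genes were picked for likeness on the same arrays, differences in the direction of the ligands follow in part from the choice. Vwf rose by 0.51 ± 0.11 in the mutant (adjusted p = 0.0121) and by 0.61 ± 0.11 in the wild-type (adjusted p = 0.00232). Klhl6 rose by 0.51 ± 0.11 in both (adjusted p = 0.0134 and 0.00813), and S1pr1 by 0.62 ± 0.14 and 0.53 ± 0.14 (adjusted p = 0.0152 and 0.0195). Myct1 was not called, at 0.55 ± 0.22 in the mutant and 0.40 ± 0.22 in the wild-type (adjusted p = 0.114 and 0.238).

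Markers of endothelium moved with these ligands. Of 18 endothelial markers, all above the filter on dim genes, 8 rose and 1 (Erg) fell in mutant knockouts, with a median log2 difference of 0.33, and 7 rose and 1 fell in wild-type knockouts, with a median of 0.32. The median of all tested genes was 0.03 and -0.01, and 13.4% and 18.8% of them were called. The mean centred log2 level of the list was 0.02 to 0.20 in mutant knockouts, against -0.30 to -0.04 in mutant controls, and 0.13 to 0.35 in wild-type knockouts, against -0.21 to -0.07 in wild-type controls. Their summed intensity was 25981 to 30795 in mutant knockouts, against 21044 to 25879 in mutant controls, and 28469 to 35407 in wild-type knockouts, against 22685 to 25509 in wild-type controls. Arrays high in the list were mostly high in Bmp4 and Bmp6, for example wild-type knockout 3. Mutant knockout 3, at 0.02, lay above every control in the list. Its Bmp4 of 12.40 was below wild-type control 3 (12.55), and its Bmp6 of 11.26 below wild-type controls 1 and 3 (11.37 and 11.59). The part of endothelial RNA in the ligand result was not tested.

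**Figure D2:**
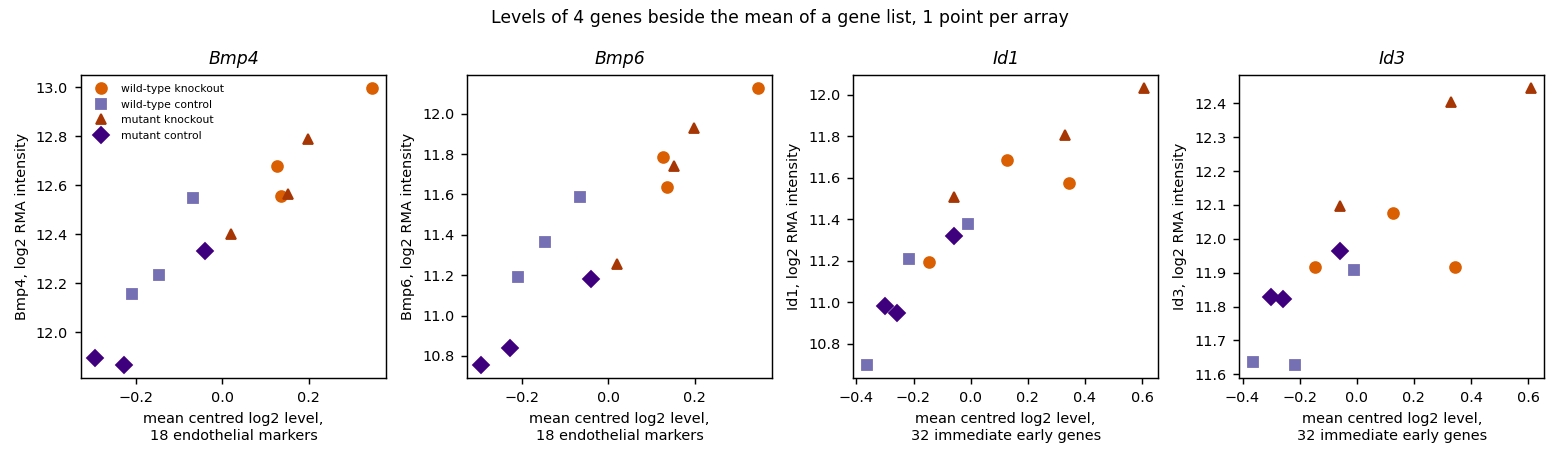
Log2 RMA intensity of Bmp4, Bmp6, Id1 and Id3 (y axes) against the mean centred log2 level of 18 endothelial markers or 32 immediate early genes (x axes), 1 point per array, with symbols for the 4 groups. The array with the highest endothelial mean, 0.35, has the highest Bmp4 and Bmp6, at 13.00 and 12.13, and the array with the highest immediate early mean, 0.61, the highest Id1 and Id3, at 12.03 and 12.44.

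Bmp2, a ligand known to drive osteogenic change, showed no called difference. It had log2 intensities of 9.73, 9.47 and 9.76 in mutant knockouts, against 9.35, 9.58 and 9.39 in mutant controls. It had 9.47, 9.34 and 9.45 in wild-type knockouts, against 9.36, 9.77 and 9.30 in wild-type controls. The ranges overlapped in both genotypes. The log2 difference with knockout was 0.22 ± 0.12 in the mutant (95% interval -0.03 to 0.47, adjusted p = 0.216) and -0.06 ± 0.12 in the wild-type (-0.31 to 0.19, adjusted p = 0.786). Among knockouts all 3 mutant arrays lay above all 3 wild-type arrays by a narrow margin, a difference of 0.23 ± 0.12 (adjusted p = 0.282).

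Grem1, which encodes gremlin-1, an antagonist that binds BMP2 and BMP4, lay only 0.60 log2 units above the filter on dim genes on average, which limits what its probe set can show. It had log2 intensities of 7.94, 7.92 and 8.01 in mutant knockouts, against 7.98, 7.88 and 7.83 in mutant controls. It had 7.90, 8.0 and 7.78 in wild-type knockouts, against 7.88, 7.93 and 7.90 in wild-type controls. The groups overlapped throughout, and the log2 difference was 0.06 ± 0.06 in the mutant (95% interval -0.07 to 0.19, adjusted p = 0.511) and -0.01 ± 0.06 in the wild-type (-0.14 to 0.12, adjusted p = 0.929).

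Id1 and Id3 were higher in mutant knockouts than in mutant controls. Id1 had log2 intensities of 12.03, 11.51 and 11.81 in mutant knockouts, against 10.98, 10.95 and 11.32 in mutant controls. It had 11.69, 11.57 and 11.20 in wild-type knockouts, against 11.21, 11.38 and 10.70 in wild-type controls. In the mutant every knockout lay above every control, and in the wild-type the groups overlapped through knockout 3 and controls 1 and 2.

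Id1 rose by 0.70 ± 0.18 on the log2 scale with knockout in the mutant (SE, n = 3 each, 1.62-fold, adjusted p = 0.0268). In the wild-type its difference was 0.39 ± 0.18 (adjusted p = 0.166), and 0.19 without wild-type control 3 (adjusted p = 0.493). Mutant knockouts against wild-type controls differed by 0.69 ± 0.18 (1.61-fold, adjusted p = 0.0174), a call lost without wild-type control 3, without mutant knockout 1 or without both arrays of high Ucp1 (0.49 to 0.56, adjusted p between 0.0597 and 0.0746).

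Id3 had log2 intensities of 12.44, 12.10 and 12.41 in mutant knockouts, against 11.83, 11.82 and 11.96 in mutant controls. It had 12.08, 11.92 and 11.92 in wild-type knockouts, against 11.63, 11.91 and 11.64 in wild-type controls. Groups did not overlap in either genotype, and the mutant knockouts stood above all 9 other arrays. Id3 rose by 0.44 ± 0.10 in the mutant (1.36-fold, adjusted p = 0.0128), and its difference in the wild-type was 0.25 ± 0.10 (adjusted p = 0.0996). Against wild-type controls the mutant knockouts were higher by 0.59 ± 0.10 (1.51-fold, adjusted p = 0.00114). Among knockouts the mutant was higher than the wild-type by 0.34 ± 0.10 without passing (adjusted p = 0.0598).

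Id2 had the smallest log2 differences with knockout of the 3 Id genes. It had log2 intensities of 13.60, 13.47 and 13.49 in mutant knockouts, against 13.44, 13.39 and 13.28 in mutant controls. It had 13.42, 13.38 and 13.34 in wild-type knockouts, against 13.26, 13.36 and 13.19 in wild-type controls. The mutant knockouts were above all other arrays. Id2 passed in 1 contrast, mutant knockout against wild-type control, where it rose by 0.25 ± 0.06 (1.19-fold, adjusted p = 0.0104). That call was lost without mutant knockout 1 (adjusted p = 0.0507). Its difference with knockout was 0.15 ± 0.06 in the mutant (adjusted p = 0.108) and 0.11 ± 0.06 in the wild-type (adjusted p = 0.232).

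Counted together, 4 of the 8 members (Bmp4, Bmp6, Id1 and Id3) rose with knockout in the mutant and none fell, where 13.4% of tested genes were called, 7.66% upward and 5.77% downward. With each array centred on its median, 32.5% of these calls were upward, against 57.0% without. Groups did not overlap for 5 members there, where that held for 35.9% of tested genes, and for 4 members in the wild-type, where it held for 35.8%. In the mutant knockout against wild-type control contrast Id1, Id2 and Id3 rose and Bmp3 fell, 4 of 8 where 23.3% of tested genes were called, 11.4% upward and 11.9% downward. Here centring put 31.1% of the calls upward, against 48.9% without. Groups did not overlap for 4 members in this contrast, for 4 between mutant and wild-type among knockouts and for 2 among controls, where that held for 38.0%, 26.3% and 28.1% of tested genes. The differences of the knockout effects between the genotypes were 0.31 ± 0.26 for Id1 (adjusted p = 0.568), 0.20 ± 0.14 for Id3 (adjusted p = 0.495) and 0.04 ± 0.09 for Id2 (adjusted p = 0.842), so no genotype difference was shown.

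The 4 calls in the mutant rest on few arrays. Without mutant knockout 1 none of the 4 passed (adjusted p between 0.0513 and 0.104). Without mutant control 1 Id3 remained, and without mutant control 2 none of the 4 remained and Bmp3 passed instead (a log2 difference of -0.53, adjusted p = 0.0451). Without mutant knockout 2 Id1 and Id3 remained, without mutant knockout 3 Id1 was lost, and without both arrays of high Ucp1 Bmp4 and Bmp6 remained, with Id1 at 0.69 (adjusted p = 0.0651) and Id3 at 0.42 (adjusted p = 0.0515).

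**Figure D3:**
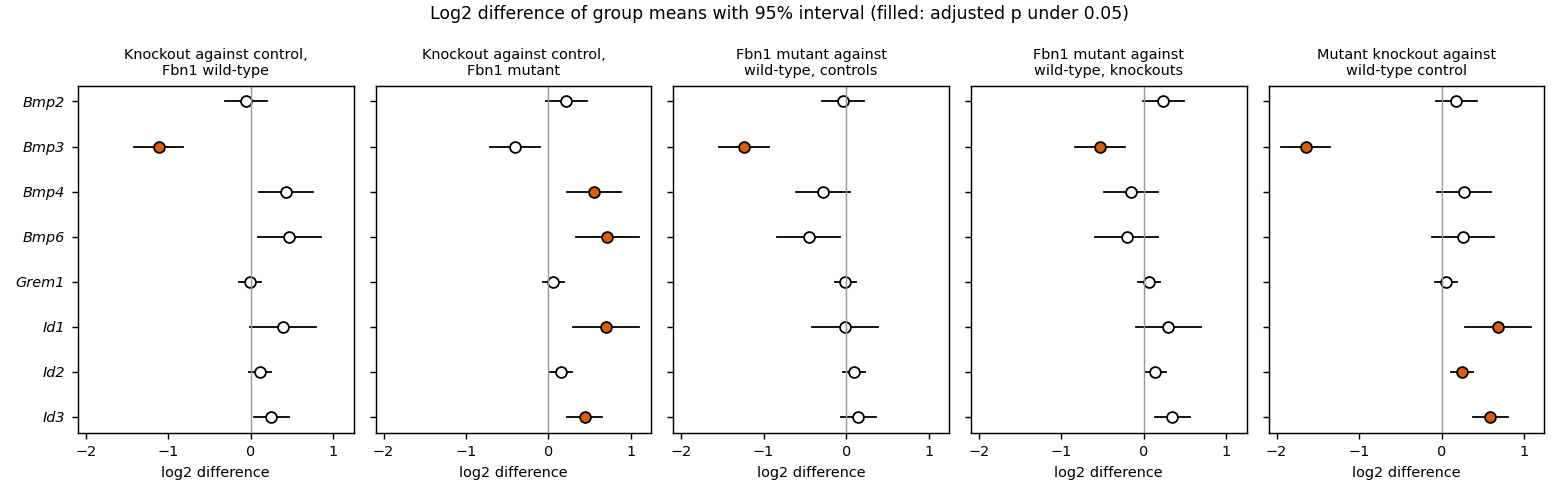
Log2 difference (x axis) of each of the 8 genes (y axis) in 5 contrasts of group means, with the 95% interval as a line and a filled dot where the adjusted p was under 0.05. Bmp3 lies left of 0 in all 5 panels, from -1.65 to -0.41, and the filled dots of Bmp4, Bmp6, Id1 and Id3 in the second panel lie between 0.44 and 0.72.

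Immediate early genes, which are switched on within minutes of handling or stimulation, followed Id1 and Id3 on some arrays but not on all. Of 32 tested, 6 rose and 0 fell with knockout in the mutant, among them Nr4a1 by 1.89 ± 0.41 (adjusted p = 0.0119) and Ier5 by 0.91 ± 0.18 (adjusted p = 0.00724). In the wild-type 4 rose and 0 fell, among them Myc by 0.97 ± 0.16 (adjusted p = 0.00109). Over all tested genes 13.4% were called in the mutant and 18.8% in the wild-type. The mean centred log2 level of the list ranged from -0.06 to 0.61 in mutant knockouts, against -0.30 to -0.06 in mutant controls. It ranged from -0.15 to 0.35 in wild-type knockouts, against -0.36 to -0.01 in wild-type controls. Its summed intensity was 79128 to 133004 in mutant knockouts, against 67606 to 83492 in mutant controls, and 74358 to 115247 in wild-type knockouts, against 71665 to 95926 in wild-type controls. Mutant knockout 1 was highest in the list, in Id1 and in Id3, and wild-type control 3 lowest in the list and in Id1. Within the mutant knockouts the list, Id1 and Id3 took the same order of arrays. Mutant knockout 3, at 0.33 in the list, was below only mutant knockout 1 in Id1 and in Id3. Mutant control 3 was the highest mutant control in the list, in Id1 and in Id3. The wild-type controls took the same order in the list and in Id1. Other pairs of arrays did not follow the list. Mutant knockout 2 was at -0.06, as was mutant control 3, but its Id3 of 12.10 lay above every array outside the mutant knockouts. Wild-type knockout 2 was at 0.35, with Id3 at 11.92 and Id1 at 11.57. Wild-type knockout 1 was at 0.13, with a higher Id3 of 12.08 and Id1 of 11.69. Id2 was also highest on mutant knockout 1 (13.60) and lowest on wild-type control 3 (13.19), but it did not follow the list on all arrays. Mutant control 1 was at -0.30 in the list and had the highest Id2 outside the mutant knockouts. The part of immediate early induction in the Id1 and Id3 results was not tested.

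The genes most like each Id gene over the 12 arrays were Plk3, a polo-like kinase gene (root mean square difference 0.133 log2), and Csrnp1, itself on the immediate early list (0.155), for Id1. For Id3 they were Midn (0.0923) and Nanos1 (0.0954), and for Id2, with its narrow range of 0.41 log2 units, Kirrel3 (0.0528) and Cnih2 (0.0530). Here too the choice by likeness on the same arrays favours differences in the direction of the Id genes. Plk3 rose by 0.68 ± 0.17 in the mutant (adjusted p = 0.0206) and by 0.62 ± 0.17 in the wild-type (adjusted p = 0.0219). Midn rose by 0.45 ± 0.07 (adjusted p = 0.00137) and by 0.24 ± 0.07 (adjusted p = 0.0231). The other 4 were not called with knockout in either genotype. Csrnp1 had 0.72 ± 0.27 in the mutant and 0.38 ± 0.27 in the wild-type (adjusted p = 0.0903 and 0.363), and Nanos1 had 0.32 ± 0.11 and 0.28 ± 0.11 (adjusted p = 0.0769 and 0.103). Kirrel3 had 0.10 ± 0.06 and 0.06 ± 0.06 (adjusted p = 0.261 and 0.543), and Cnih2 had 0.07 ± 0.06 in both (adjusted p = 0.420 and 0.457). Among the members themselves Id3 was the 11th nearest tested gene to Id1 (0.193).

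The rest of the pathway was read from lists of ligands, antagonists, receptors, SMADs, induced genes and ID partners. The counts of these lists stand beside 13.4% of all tested genes called with knockout in the mutant and 18.8% in the wild-type. Of 19 BMP and related ligand genes 14 were tested. In the mutant 4 rose and 0 fell with knockout (median log2 difference 0.20, against 0.03 over all tested genes), and in the wild-type 2 rose and 1 fell (median 0.05, against -0.01). Without the 4 member ligands 10 were tested, of which 2 rose and 0 fell in each genotype. They were Gdf6 and Gdf11. Gdf6, a BMP-family ligand of joint and bone patterning, rose by 0.93 ± 0.13 in the mutant (adjusted p = 0.00114) and by 1.19 ± 0.13 in the wild-type (adjusted p = 9.13e-05). Gdf11 rose by 0.35 ± 0.07 (adjusted p = 0.0106) and by 0.36 ± 0.07 (adjusted p = 0.00462). Among knockouts Gdf6 was lower in the mutant than in the wild-type by -0.72 ± 0.13 (adjusted p = 0.00736), and among controls Gdf10 was higher in the mutant by 0.31 ± 0.07 (adjusted p = 0.0288).

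Of 22 secreted antagonists and modulators tested, 6 fell and 1 rose with knockout in the mutant (median -0.08), and 5 fell and 1 rose in the wild-type (median -0.01). Fstl3, which binds activins and some BMPs, fell by 0.65 ± 0.07 in the mutant (adjusted p = 9.19e-05) and by 0.44 ± 0.07 in the wild-type (adjusted p = 7.10e-04). Twsg1, a partner of chordin, fell by 0.31 ± 0.04 (adjusted p = 9.29e-04) and by 0.29 ± 0.04 (adjusted p = 5.89e-04). The gene that rose in the mutant was Fst, encoding follistatin, a binder of activins and BMPs, by 0.67 ± 0.12 (adjusted p = 0.00477).

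Htra1, a secreted serine protease known to curb TGF-beta family signalling, differed between the genotypes. It fell by 0.56 ± 0.07 with knockout in the mutant (adjusted p = 3.93e-04), and the test of the difference of the effects gave -0.56 ± 0.10 (adjusted p = 0.0157). Fstl1 also passed that test, at -0.33 ± 0.07 (adjusted p = 0.0462), though under only 7 of 22 alternatives. In the wild-type the antagonists Chrd (chordin) and Sost (sclerostin, also a Wnt inhibitor) fell with knockout, by 0.33 ± 0.05 (adjusted p = 7.87e-04) and by 0.51 ± 0.09 (adjusted p = 0.00142). Chrd was also lower in mutant than in wild-type controls, by -0.34 ± 0.05 (adjusted p = 0.00333). Mutant knockouts against wild-type controls gave 10 of 22 antagonists and modulators that fell and 1 that rose. In that contrast 11.9% of all tested genes were called downward and 11.4% upward.

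Among 14 receptor and co-receptor genes, Bmpr1b, which encodes a type I BMP receptor, fell in every pairwise contrast. With knockout it fell by 0.59 ± 0.07 in the mutant (adjusted p = 4.11e-04) and by 0.53 ± 0.07 in the wild-type (adjusted p = 3.65e-04). Between mutant and wild-type it fell by 0.87 ± 0.07 among knockouts (adjusted p = 1.17e-04) and by 0.81 ± 0.07 among controls (adjusted p = 1.26e-04). Mutant knockouts lay below wild-type controls by -1.40 ± 0.07 (adjusted p = 4.97e-07).

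With knockout 1 receptor gene rose and 1 fell in the mutant (median -0.03), and 1 rose and 6 fell in the wild-type (median -0.13). Hjv, the co-receptor hemojuvelin known from iron control, was the one that rose in the mutant, by 0.49 ± 0.09 (adjusted p = 0.00398), and it was higher in mutant than in wild-type controls by 0.33 ± 0.09 (adjusted p = 0.0443). Rgma, a co-receptor, fell in the wild-type by 0.38 ± 0.06 (adjusted p = 6.86e-04), with a genotype difference of 0.37 ± 0.08 (adjusted p = 0.0467) that passed under 8 of 22 alternatives. Eng, the endothelial co-receptor endoglin, rose in the wild-type by 0.30 ± 0.07 (adjusted p = 0.0133), beside the endothelial markers given above.

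Of 17 SMADs and their regulators, 1 rose and 1 fell with knockout in the mutant (median -0.02), and 0 rose and 6 fell in the wild-type (median -0.08). Skil, which encodes the SMAD repressor SnoN and is itself known to be induced by TGF-beta, fell by 0.44 ± 0.11 in the mutant (adjusted p = 0.0219) and by 0.48 ± 0.11 in the wild-type (adjusted p = 0.00994). Smad9, a receptor SMAD of the BMP branch, rose by 0.37 ± 0.06 in the mutant (adjusted p = 0.00283), and the genotype difference was 0.43 ± 0.09 (adjusted p = 0.0327), which passed under 10 of 22 alternatives. The ubiquitin ligase gene Smurf2 fell by 0.19 ± 0.04 in the wild-type (adjusted p = 0.0118).

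Genes known to be induced by BMPs were read without the 3 Id members, which left 23 tested. In the mutant 3 rose and 0 fell with knockout, and in the wild-type 2 rose and 2 fell. Id4, the remaining gene of the Id family, rose by 0.60 ± 0.08 in the mutant (adjusted p = 4.03e-04), with a genotype difference of 0.61 ± 0.11 (adjusted p = 0.0153). That genotype difference was the largest in size of those called among the BMP-related lists. Among knockouts Id4 was higher in the mutant than in the wild-type by 0.70 ± 0.08 (adjusted p = 2.52e-04). In the wild-type the Notch and BMP target Hey1 rose by 0.40 ± 0.13 (adjusted p = 0.0446) and Tbx20 by 0.47 ± 0.14 (adjusted p = 0.0360), while Hey2 fell by 0.26 ± 0.07 (adjusted p = 0.0197) and Prdm16 by 0.50 ± 0.09 (adjusted p = 0.00212).

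Of 14 genes for E proteins and other partners of ID proteins, 3 rose and 1 fell with knockout in the mutant, and 2 rose and 2 fell in the wild-type. Tcf21, a helix-loop-helix gene of the epicardial and fibroblast lineage that is also on the fibroblast list, rose by 0.85 ± 0.15 in the mutant (adjusted p = 0.00457) and by 0.97 ± 0.15 in the wild-type (adjusted p = 9.27e-04). Twist2 rose by 0.49 ± 0.11 (adjusted p = 0.0166) and by 0.48 ± 0.11 (adjusted p = 0.0116). The E proteins themselves, named after their values were seen, were not called. Their log2 differences with knockout in the mutant were 0.03 for Tcf3, -0.13 for Tcf4 and 0.11 for Tcf12 (adjusted p between 0.172 and 0.702).

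**Figure D4:**
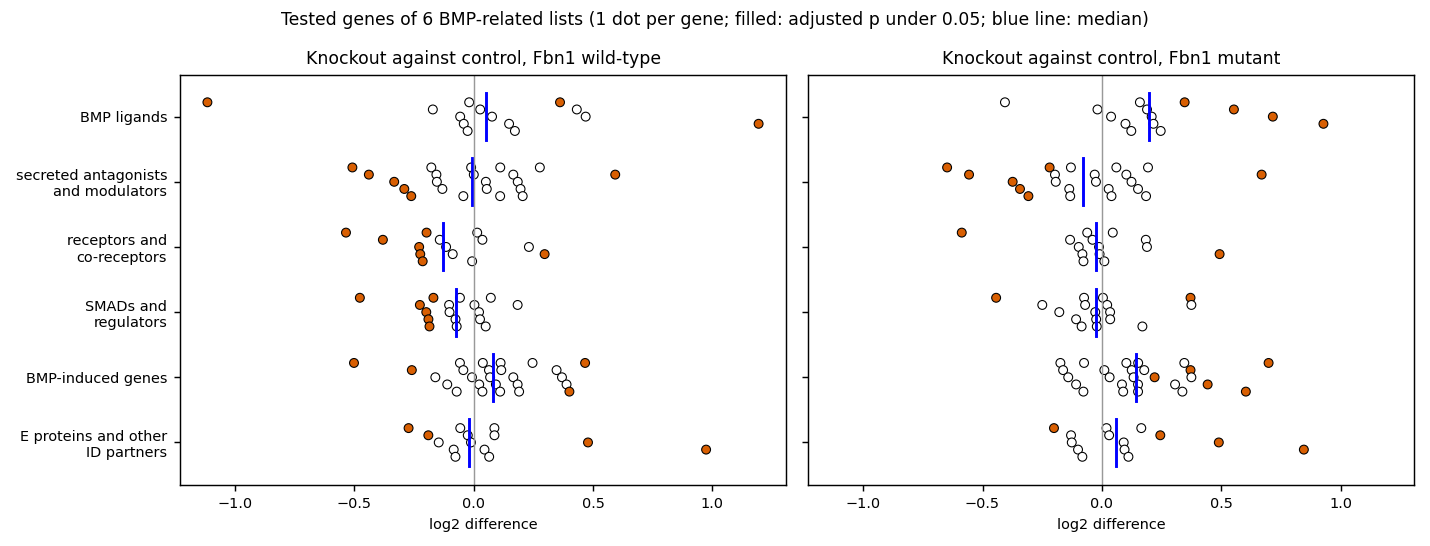
Log2 difference of knockout against control (x axis) for the tested genes of 6 BMP-related lists (y axis), in the wild-type (left) and the mutant (right). Each dot is a gene, filled where the adjusted p was under 0.05, and the blue line is the list median. The ligand medians are 0.05 and 0.20, and Gdf6 is the ligand farthest to the right, at 1.19 and 0.93.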

How the data were processed

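RNA of the ascending aorta was hybridised by the authors to a 1-colour Affymetrix whole-transcript array. RMA normalisation used Partek 6.4, per the submitters' processing notes. The deposited values are linear RMA intensity for 35556 probe sets, with medians per array between 301 and 334, and log2 was taken here. No array pair held identical values, raw scans and detection calls were not used, and the number of arrays limits precision.

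The brightest probe set on average stood for each gene, out of 21789 with 1 symbol, and 1621 with several symbols and 12146 with none were left out. Genes under the 25th percentile (log2 7.31, an intensity of 159) were not tested. One coefficient per group was fitted with limma 3.58.1 in R 4.3.3 over all 12 arrays (8 residual degrees of freedom, 4.54 from the prior). Tests were two-sided with Benjamini-Hochberg adjustment over 14944 genes, with 0.05 as the threshold. There were 6 contrasts: knockout against control in each genotype, mutant against wild-type in knockouts and in controls, mutant knockout against wild-type control, and the difference of the knockout effects. The code was tested on simulated data.

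The members and 15 gene lists (297 entries, 265 tested) were chosen with earlier results of these data known. Named genes are the members and Tgfbr2, up to 4 genes of smallest p per list and contrast among those called, and the 2 genes most like each called member, leaving out predicted genes, olfactory receptors and symbols beginning with Mir or Snor. Alternatives were other filters, scalings, variance models, array weights, probe set averaging, the groups of a contrast alone, a replicate block, each array left out, and the 2 arrays of high Ucp1 left out. Lists of adipocyte, cardiac muscle, fibroblast and calcification genes were also read. The titles do not say whether their replicate numbers pair the arrays, and the main fit used no block. Deviations of same-numbered knockouts and controls correlated at 0.01 to 0.24. Differently numbered arrays were not compared in this way, so pairing is not settled. The genome build of the array annotation is not given in the sources used here.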

Additional observations from a re-analysis of the deposited data

Results flagged for a closer look

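Of the BMP-related genes named here, 5 differed between the Fbn1 genotypes in their response to knockout, by limma's test of the difference of the effects (mutant minus wild-type, 3 arrays per group). None of the 5 is among the 8 BMP ligand, antagonist and Id genes described above, and 1.48% of all tested genes passed this test.

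Id4 gave a difference of 0.61 ± 0.11 on the log2 scale (adjusted p = 0.0153), with a knockout effect of 0.60 ± 0.08 in the mutant and -0.01 ± 0.08 in the wild-type. It passed under 21 of 22 alternatives, the exception being the fit without both arrays of high Ucp1 (0.52, adjusted p = 0.0636). Htra1 gave -0.56 ± 0.10 (adjusted p = 0.0157), with -0.56 ± 0.07 in the mutant (adjusted p = 3.93e-04) and an effect near 0 in the wild-type (adjusted p = 0.998), and it passed under 22 of 22 alternatives.

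The other 3 rest on the full set of arrays. Smad9 gave 0.43 ± 0.09 (adjusted p = 0.0327), with 0.37 ± 0.06 in the mutant and -0.06 ± 0.06 in the wild-type, and passed under 10 of 22 alternatives (adjusted p up to 0.126). Rgma gave 0.37 ± 0.08 (adjusted p = 0.0467), with -0.01 ± 0.06 in the mutant and -0.38 ± 0.06 in the wild-type, and passed under 8 of 22 (adjusted p up to 0.117). Fstl1 gave -0.33 ± 0.07 (adjusted p = 0.0462), with -0.22 ± 0.05 in the mutant and 0.11 ± 0.05 in the wild-type, and passed under 7 of 22 (adjusted p up to 0.115). Leaving out wild-type control 1, 2 or 3, wild-type knockout 1 or 3, mutant control 1 or 2, or mutant knockout 1 or 3 ended all 3 of these calls.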

How the results depend on the processing

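No called result changed direction under any alternative run. The number of members called with knockout in the wild-type (1 of 8) was 3 with array weights and 2 with a fit to the compared groups alone or without both arrays of high Ucp1, and 1 to 2 with 1 array left out. In the mutant (4 of 8) it was 2 with eBayes trend and robust (Bmp6 and Id3) and 2 without both arrays of high Ucp1 (Bmp4 and Bmp6), 6 with array weights (Bmp3 and Id2 added), 5 with median centring (Bmp3 added), and 0 to 4 with 1 array left out. Between mutant and wild-type among knockouts (1 of 8) it was 2 with the filter at the median or with array weights, 0 with trend and robust, and 0 to 1 with 1 array left out. Among controls it stayed at 1 under all alternatives. For mutant knockout against wild-type control (4 of 8) it was 2 to 5 with 1 array left out and 3 to 6 otherwise. For the difference of the effects (0 of 8) it was 1 (Bmp3) without both arrays of high Ucp1 and 0 to 1 with 1 array left out. The cause was not tested. Whether the replicate number pairs these arrays is not known. With it as a block, 2 members were called in the wild-type (Bmp3 and Bmp4, with Bmp4 at an adjusted p of 0.0439). In the mutant 5 were called (Bmp3 added, adjusted p = 0.0400), and no other call of a member changed.

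For single named genes 5853 values under the alternatives kept their side of the threshold, 506 lost the call, 24 gained one and 0 turned direction past the threshold. List genes entered only for contrasts in which they were called, so only the members and Tgfbr2 could gain a call. Over all tested genes the counts of calls moved as well. With knockout in the mutant 2008 were called, with 1083 to 3687 under the alternatives and 894 to 2151 with 1 array left out. In the wild-type 2814 were called, with 2431 to 3446 and 1831 to 2990. Between mutant and wild-type 890 were called among knockouts, with 406 to 1687 and 378 to 1021, and 970 among controls, with 480 to 1568 and 349 to 1073. For mutant knockout against wild-type control 3479 were called, with 2180 to 4520 and 2297 to 3502, and for the difference of the effects 221, with 152 to 469 and 106 to 202. Centring each array on its median lowered the share of calls that were upward to 32.5% from 57.0% with knockout in the mutant, to 29.5% from 47.0% between genotypes among knockouts, to 31.1% from 48.9% for mutant knockout against wild-type control and to 14.8% from 27.1% for the difference of the effects. Grem1 was not tested where the filter lay at the median.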

Other observations

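Other cell types of the aortic sample also varied with the groups. Their counts stand beside 13.4% of all tested genes called with knockout in the mutant and 18.8% in the wild-type. Of 15 fibroblast markers tested, 3 rose and 3 fell with knockout in the mutant and 6 rose and 0 fell in the wild-type. Of 15 cardiac muscle markers, 4 rose and 1 fell in the mutant and 3 rose and 1 fell in the wild-type, and their summed intensity was 18788 to 20976 in mutant knockouts, against 11205 to 15018 in mutant controls, and 16676 to 18950 in wild-type knockouts, against 12154 to 13998 in wild-type controls. Of 11 adipocyte markers 2 rose and 0 fell in the mutant and 2 rose and 1 fell in the wild-type. Their part in the values of the BMP genes was not tested. Of 14 tested genes of vascular calcification, cartilage and bone, in which BMP ligands are known to act, 3 rose and 3 fell with knockout in the mutant and 4 rose and 2 fell in the wild-type, with medians of 0.06 and 0.09 on the log2 scale. Of 14 smooth muscle markers 3 rose and 2 fell in the mutant and 1 rose and 3 fell in the wild-type.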
